A study of Drosophila melanogaster with 2 samples.

Results

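The genes CycA, CycB, CycB3, CycD, CycE, stg (string), E2f1, E2f2, Dp and Rbf drive and restrain the cell division cycle of the fly Drosophila melanogaster, and their occupancy by 1 tagged protein was read from chromatin immunoprecipitation followed by sequencing (ChIP-seq). These 10 genes were taken by name from the annotation, and all 10 of them were found among its 13945 protein-coding genes. The embryos were whole organisms aged 10 to 24 h from a transgenic line that makes CG9817, an older name of CG43347 in RefSeq, with GFP at its C-terminus, and the antibody was against GFP. The labels do not name the promoter that drives the fusion. The series holds 1 group of 2 biological replicates, numbered 1 and 3, so no treatment, genotype or age was compared, and no group without the fusion was analysed here. Whole embryos mix all tissues, so a peak does not tell in which cells the site was occupied.

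Cyclins are the regulatory subunits of cyclin-dependent kinases (Cdks). CycD and CycE act before and at the entry into DNA replication, and CycA, CycB and CycB3 act around mitosis. The phosphatase String, of the Cdc25 family, removes the inhibitory phosphates from the mitotic Cdk, and its transcription sets when embryonic cells divide after the maternal supply has gone. E2f1 (mostly an activator) and E2f2 (a repressor) bind DNA together with their partner Dp, and the pocket protein Rbf holds E2F in check until cyclin-dependent kinases release it. In the second part of embryogenesis most epidermal cells have stopped dividing, while neural precursors go on and several larval tissues replicate their DNA without dividing.

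Windows reaching 100 bp to either side of a peak's summit, inside or at the start of these genes, are shown first. Their peaks are in the list that was thresholded on reproducibility between replicates. That list holds the same peaks as the 5038 strongest called on both replicates together. Each window is on the strand of its gene, 5′ to 3′, on release 6 (dm6) of the RefSeq sequence, and annotated UTR bases were left out. Capitals mark a match to any of 8 motifs, each named with its letters beside its counts. Windows of CycB, Dp and E2f2 are not printed. The E2f1 window labelled inner start site has its summit 298 bp upstream of that TSS and does not reach it.
CycE, first summit, chr2L:15746949-15747149, minus strand: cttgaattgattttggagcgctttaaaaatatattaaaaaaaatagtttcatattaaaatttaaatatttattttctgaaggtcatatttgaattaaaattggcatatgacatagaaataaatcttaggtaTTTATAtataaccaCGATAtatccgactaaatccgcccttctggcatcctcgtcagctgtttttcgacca
CycE, second summit, chr2L:15747159-15747359, minus strand: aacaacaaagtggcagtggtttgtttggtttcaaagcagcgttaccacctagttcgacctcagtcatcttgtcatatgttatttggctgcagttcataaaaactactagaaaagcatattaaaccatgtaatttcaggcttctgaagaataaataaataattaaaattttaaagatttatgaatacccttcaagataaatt
CycB3, start site, chr3R:24870817-24870993, minus strand: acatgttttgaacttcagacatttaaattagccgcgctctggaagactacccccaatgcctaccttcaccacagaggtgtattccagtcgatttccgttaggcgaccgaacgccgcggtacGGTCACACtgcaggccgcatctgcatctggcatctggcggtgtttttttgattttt
E2f1, inner start site, chr3R:21633271-21633471, minus strand: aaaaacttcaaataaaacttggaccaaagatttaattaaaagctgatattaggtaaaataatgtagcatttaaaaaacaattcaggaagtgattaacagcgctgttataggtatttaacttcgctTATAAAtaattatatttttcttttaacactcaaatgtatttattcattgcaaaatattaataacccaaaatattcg
E2f1, intron, chr3R:21627828-21628028, minus strand: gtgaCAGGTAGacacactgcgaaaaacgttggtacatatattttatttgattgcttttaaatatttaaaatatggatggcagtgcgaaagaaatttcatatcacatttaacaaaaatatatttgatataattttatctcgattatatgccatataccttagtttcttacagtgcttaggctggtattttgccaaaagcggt

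Of the 10 genes, 6 carried a promoter peak in the list of 5038 peaks that had been thresholded by the irreproducible discovery rate (IDR), a measure of how well replicates rank the same site. They were Dp, CycE, CycB3, E2f2, CycB and E2f1, in order of signal. Neither CycA, CycD, stg nor Rbf had one. A peak counted as a promoter peak when its summit was at most 500 bp from a transcription start site (TSS) that the annotation gives for the gene. Across all protein-coding genes 23.7% (3309 of 13945) had such a peak. With only 1 group no test was made, and the share is a description of these lists. In the stronger 2519 peaks of the list the count was 2 of 10 (CycE and Dp), beside 14.8%. With a distance of 250 bp it was 4 of 10, beside 19.1%, and CycE and E2f1 no longer had a promoter peak. Replicates mattered for 3 members. Among the strongest 5038 peaks of replicate 3 alone CycB and E2f1 had no promoter peak (4 of 10 were left, beside 21.8% of coding genes). Among those of replicate 1 alone E2f2 had none (5 of 10, beside 26.8%).

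The number of start sites moved with this count. All 4 members with 3 or more TSSs (CycB, CycE, E2f1 and Dp) had a promoter peak, where 47.7% of 1133 such coding genes did. With 2 TSSs it was 1 of 2 members (E2f2 but not stg) beside 33.3% of 2566 genes, and with 1 TSS it was 1 of 4 (CycB3) beside 18.7% of 10246. The part that start-site number has in the members' count was not tested.

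In longer lists the share of other genes rose while the members' count hardly moved. In the pooled list, the 30000 peaks called on both replicates together, the same 6 of 10 members had a promoter peak, beside 48.2% of coding genes. In the full list of replicate 3 those 6 again had one, beside 45.4%. In that of replicate 1 it was 7 of 10, with CycA added, beside 53%.

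**Figure D1:**
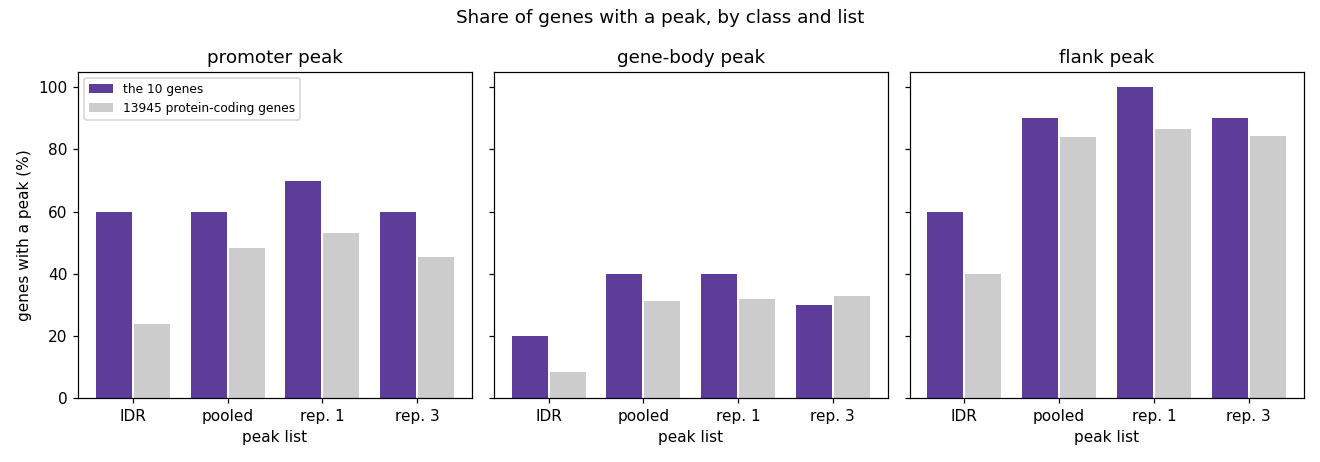
Percent of genes (vertical axis) with a promoter, gene-body or flank peak in each of the 4 peak lists (horizontal axis), for the 10 genes (purple) and for all 13945 protein-coding genes (grey). The bars differ most for promoter peaks in the IDR-thresholded list, with 6 of 10 beside 23.7%.

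Dp, the dimerisation partner that both E2F proteins need, had the strongest promoter peak of the 10 in the pooled list and in replicate 3, while CycE was first in replicate 1 (rank 471, beside 485 for Dp). It lies at 13222433 to 13228202 on 2R, plus strand, with 3 TSSs. Its main peak (13223196 to 13223514) had its summit in an intron, 233 bp upstream of an inner TSS. The signal there was 1084 in the pooled data (rank 266 of 5038), 320.1 in replicate 1 (rank 485 of 30000) and 770 in replicate 3 (rank 199). Signals are the authors' own values per peak on a scale the sources used here do not define, so only ranks are set side by side between lists.

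A further pair of IDR-thresholded summits lay near Dp start sites. That at 13223908 to 13224120 was 410 bp downstream of the same inner TSS, in an intron (signal 590, rank 754), and ranked 976 in replicate 1 and 661 in replicate 3. The weakest, at 13222204 to 13222553, lay 54 bp upstream of the outermost TSS and 41 bp from the TSS of the oppositely oriented gene Fsn (signal 261, rank 2412). It ranked 2127 in replicate 1 and 2821 in replicate 3. All 3 summits were thus among the 5038 strongest peaks of each replicate, and that at the outermost start of Dp had the lowest signal of them.

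E2f1 had its stronger summit away from any start site. The gene spans 21620304 to 21660871 on 3R, minus strand, is the longest member at 40568 bp and has 5 TSSs. An intronic peak at 21627853 to 21628038, 4765 bp downstream of the nearest E2f1 TSS, had a signal of 451 (rank 1178) in the pooled data. Its rank was 2034 in replicate 1 (signal 122) and 915 in replicate 3 (signal 322). The promoter peak, at 21633196 to 21633545, was the weakest of the 6 members' best, 298 bp upstream of an inner TSS, with a signal of 133 and rank 4867 of 5038. It ranked 4819 in replicate 1 and 5810 in replicate 3, so it was beyond the strongest 5038 of the latter. At the outermost E2f1 start the pooled list had only a weak summit, 155 bp upstream (signal 66.1, rank 10580).

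E2f1 also held many summits below the IDR threshold. Inside the gene there were, at any strength, 20 in the pooled list, 20 in replicate 1 and 15 in replicate 3, or 4.93, 4.93 and 3.70 per 10 kb. In 1013 coding genes of at least 20 kb the median was 2.24, 2.17 and 2.23 per 10 kb, and 7.31%, 6.02% and 19.2% of them reached the E2f1 value. CycE, the only other member of that length, held 1.94, 2.43 and 1.94 per 10 kb, near those medians.

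E2f2, the second E2F gene (21154293 to 21156749 on 2L, minus strand), had its promoter peak at 21156093 to 21156442. The summit lay 36 bp upstream of the inner of its 2 TSSs, within the 5′ UTR of its longer transcript, and 20 bp from the TSS of Mpp6, which runs the other way. The signal was 164 (rank 3964), with 48.0 in replicate 1 (rank 5507) and 123 in replicate 3 (rank 3267). Here replicate 3 placed the site higher, and replicate 1 put it outside its strongest 5038. When a summit counted only for the coding gene with the nearest TSS, the peak went to Mpp6 and 5 of 10 members were left with a promoter peak, beside 17.2% of coding genes.

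Rbf, the pocket protein that restrains E2F, stood apart from its partners (797090 to 801479 on X, minus strand, 1 TSS). No list had a summit within 500 bp of its TSS or inside the gene. The nearest IDR-thresholded summit lay 36251 bp from the TSS. The pooled list placed 3 weak summits downstream of the gene, 524, 1094 and 2007 bp beyond its end, in the neighbour CG16989, which runs towards Rbf. They ranked 10716, 14979 and 23351.

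CycE, whose product drives the entry into S phase, had the strongest promoter and gene-body peaks of the cyclin genes in the IDR-thresholded list, though the flank peak of CycB was stronger than either. It spans 15727581 to 15748150 on 2L, minus strand, with 3 TSSs. The stronger peak (15746900 to 15747144) had a pooled signal of 670 (rank 604), with 323 in replicate 1 (rank 471) and 345 in replicate 3 (rank 792). A second peak at 15747138 to 15747348 had a signal of 472 (rank 1101) and ranked 979 in replicate 1 and 1882 in replicate 3. Both summits lay in an intron, 439 and 649 bp upstream of the middle TSS, so the first counted as a promoter peak and the second as a gene-body peak. These 2 peaks overlap at their edges, so the 2 classes divide 1 continuous stretch. The outermost CycE start had no summit in the pooled list or in replicate 3, and replicate 1 had weak ones 42 and 248 bp upstream of it (ranks 12528 and 27687).

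CycB and CycB3, which encode B-type mitotic cyclins, had weaker promoter peaks. CycB3 (24867934 to 24870816 on 3R, minus strand) had its summit 77 bp upstream of its TSS, with a pooled signal of 180.5 (rank 3612). This site ranked 3315 in replicate 1 (signal 78.3) and 4041 in replicate 3 (signal 100.6), inside the strongest 5038 of each. CycB (22803521 to 22806948 on 2R, minus strand) had its summit 95 bp upstream of the outermost of 3 TSSs, with a signal of 137 (rank 4742). Replicate 1 ranked it 3545 (signal 73.9) and replicate 3 ranked it 7011 (signal 61.9).

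The strongest of all peaks around the 10 genes lay beyond the 3′ end of CycB. This peak, at 22802791 to 22803122 on 2R, had a signal of 2073 and rank 66 of 5038, and ranked 36 in replicate 1 (signal 1074) and 112 in replicate 3 (signal 995). Its summit was 556 bp past the end of CycB and 785 bp past the end of blw, which encodes a subunit of the mitochondrial ATP synthase and is transcribed towards CycB. The site thus lay between a pair of 3′ ends, with no TSS within 500 bp. Of the 2412 IDR-thresholded summits that far from every TSS, 18 (0.746%) were at least as strong, the CycB summit included. Of the 140 IDR-thresholded summits between convergent coding genes, at any distance from a TSS, 2 were, again with the CycB summit included.

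CycA (11826719 to 11833578 on 3L, minus strand), the third mitotic cyclin gene, had a promoter summit in replicate 1 only. It lay 34 bp upstream of the TSS with a signal of 42.2 (rank 6232), and neither replicate 3 nor the pooled list had a summit within 500 bp. CycD (15906822 to 15909676 on X, minus strand), the cyclin partner of Cdk4, had none in the IDR-thresholded, pooled or replicate 3 list within 5 kb. Replicate 1 had 1 peak there, at 15910123 to 15910252 with its summit 539 bp upstream of the TSS, just outside the promoter distance. It ranked 1955 (signal 126), and no peak of the pooled list or of replicate 3 overlapped it. Of the 5038 strongest peaks of replicate 1, 132 (2.62%) had no overlap in either list, against 15 (0.298%) for replicate 3 with the pooled list and replicate 1.

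At stg, the Cdc25 phosphatase gene (29251826 to 29255800 on 3R, minus strand, 2 TSSs), no IDR-thresholded summit lay in the gene or within 5 kb. The nearest was 19003 bp from a TSS (signal 184, rank 3538). No list had a stg promoter summit, though some fell just outside the distance. A pooled summit 517 bp downstream of the inner TSS ranked 13608 (7465 in replicate 1, with no summit of replicate 3 inside the gene), and replicate 1 had another 501 bp upstream of the outermost TSS (rank 18630), 184 bp from a TSS of CG45544. The strongest pooled summit was 313 bp past the end of the gene (signal 93.7, rank 7009). Each replicate had a summit there too, 377 bp past the end in replicate 1 (rank 5837) and 272 bp in replicate 3 (rank 10997). The regulatory DNA of stg is known to extend far upstream of the gene, and the window of 5 kb covers only a portion of it.

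**Figure D2:**
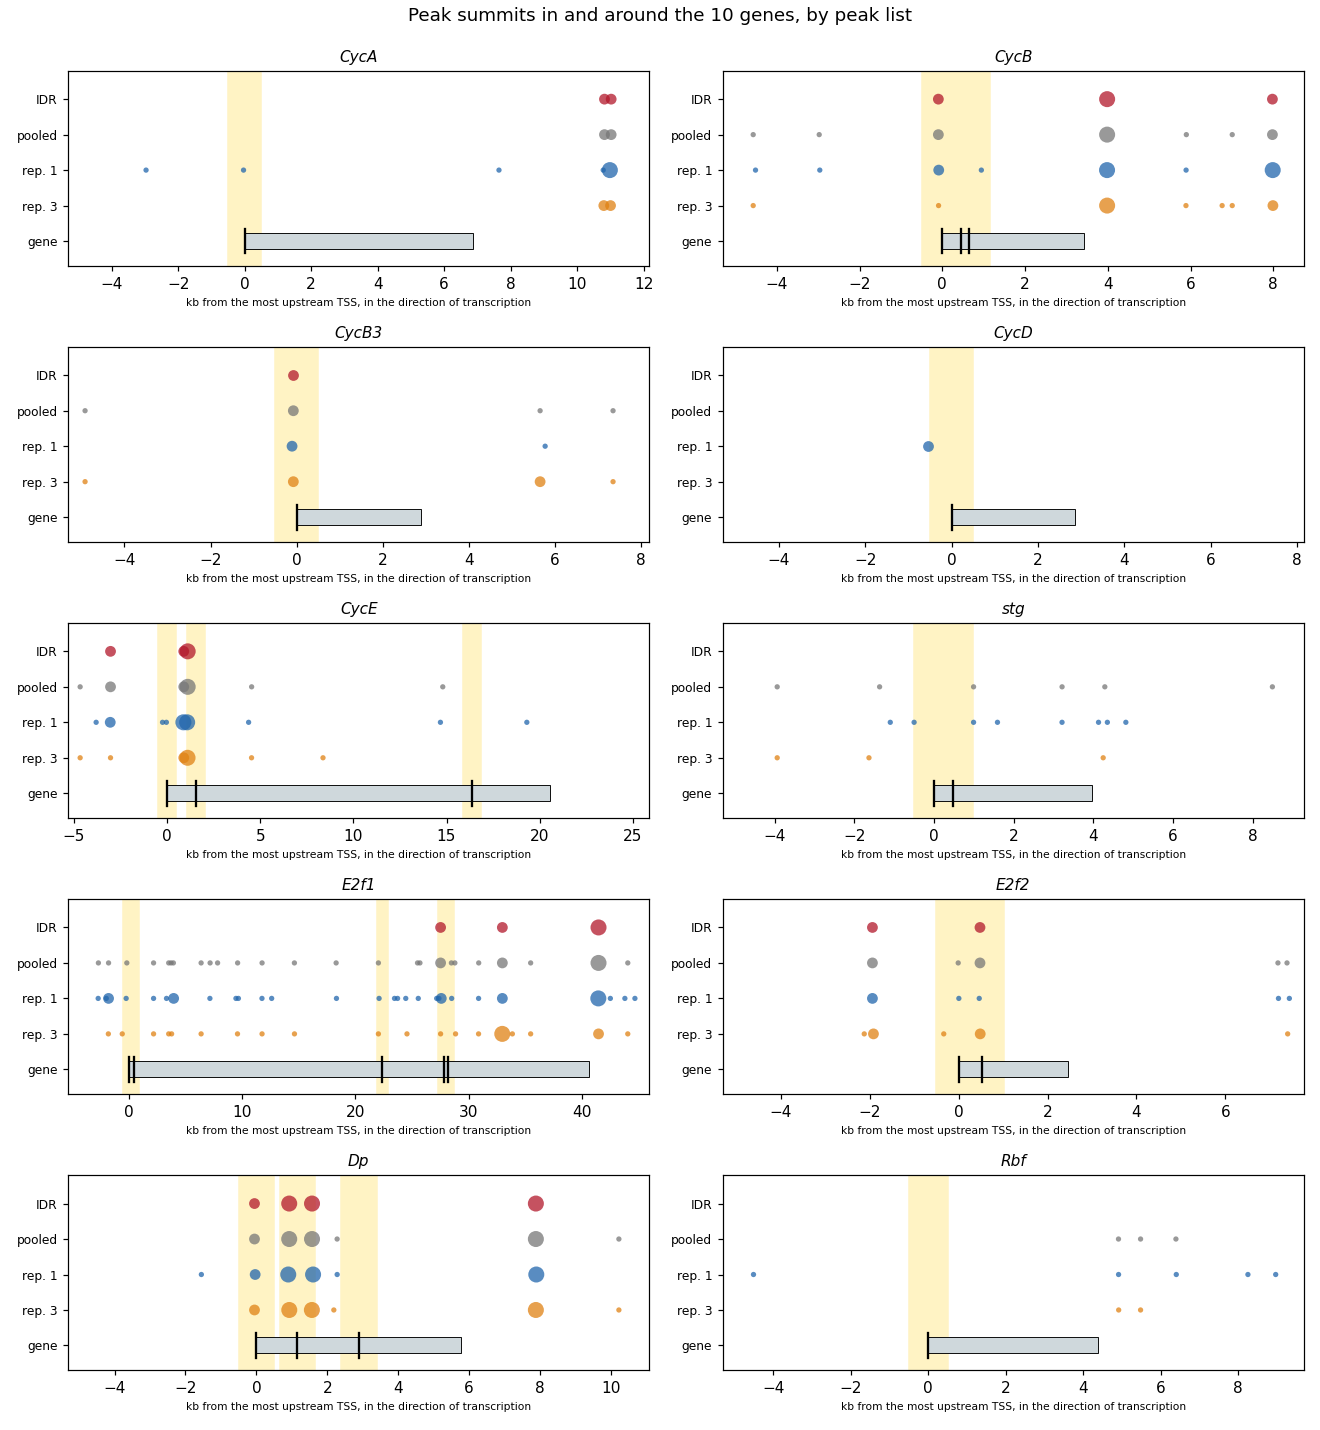
Summits of the 4 peak lists (rows, coloured by list) in and within 5 kb of each gene, with distance in kb from the most upstream TSS along the direction of transcription on the horizontal axis. Grey bars are the genes, black ticks their TSSs and yellow bands the 500 bp around each TSS, and points are large for ranks up to 1000, medium up to 5038 and small beyond. CycD, stg and Rbf have no point in the top row.

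**Figure D3:**
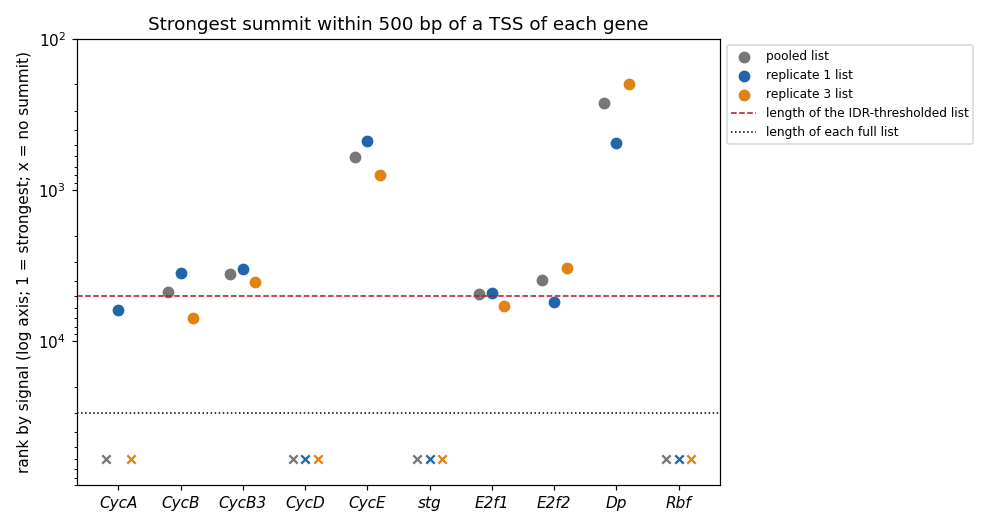
Rank by signal (vertical log axis, 1 is the strongest) of the strongest promoter summit of each gene (horizontal axis) in the pooled list (grey), replicate 1 (blue) and replicate 3 (orange), with crosses where a list has none. Dp and CycE rank better than 1000 in all 3 lists, while CycB, CycB3, E2f1 and E2f2 lie around the dashed line at 5038.

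A gene-body peak, a summit inside the gene over 500 bp from each of its TSSs, was present in the IDR-thresholded list at 2 of 10 members (CycE and E2f1), beside 8.45% of coding genes. Both are over 20 kb long, and 50.3% of the 1013 coding genes of at least that length had one. The pooled list gave 4 of 10 (CycE, stg, E2f1 and Dp) beside 31.3%, replicate 1 the same 4 beside 31.9%, and replicate 3 gave 3 of 10 (without stg) beside 32.9%.

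Flank peaks, with a summit outside the gene but within 5 kb of its ends, were present at 6 of 10 members (CycA, CycB, CycE, E2f1, E2f2 and Dp) in the IDR-thresholded list, beside 39.9% of coding genes. Within 2 kb it was 3 of 10 (CycB, E2f1 and E2f2), beside 18.8%. In the pooled list and in replicate 3 it was 9 of 10 (all but CycD), beside 83.9% and 84.2%, and in replicate 1 all 10, beside 86.5%. Of the 8 IDR-thresholded flank summits, 7 lay within 500 bp of the TSS of another coding gene, where over all coding genes 70.3% of 7810 pairs of a gene and a flank summit did. The exception was the peak between CycB and blw.

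These 7 flank summits marked starts of neighbours with other roles. The pair downstream of CycA (signals 445 and 247, ranks 1202 and 2573) came from directly adjoining peaks. The first summit lay 281 bp from a TSS of CG11597 and equally far from one of CG5946. The second lay 94 bp from a TSS of RpL10Ab, a ribosomal protein gene. The peak downstream of E2f1 (signal 512, rank 957) lay 131 bp from a TSS of InR, the insulin receptor gene. Beside E2f2 a summit (453, rank 1171) lay 76 bp from Coq3 and 160 bp from Pld3. Those beside Dp (571, rank 795), CycE (169, rank 3864) and CycB (483, rank 1059) lay 79 bp from Pex13, a peroxisome gene, 113 bp from ND-B17, a gene of respiratory complex I, and 128 bp from blw.

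Over the 3 classes, 7 of 10 members had an IDR-thresholded summit (53.5% of coding genes did), with 18 summits in all. By position, 10 of the 18 summits were intergenic and 6 intronic. The remaining 2 lay in 5′ UTRs, of E2f2 and of Fsn beside Dp, and 0 in coding sequence. Shares of these positions over all 5038 peaks are not given here, so no trait of the members is read from them. All but 1 of the 18 had a counterpart of at least 50% reciprocal overlap in the full list of each replicate, where 79.2% of all 5038 peaks did. The exception was the second summit downstream of CycA, which had none in replicate 3 by that measure but had one by an overlap of 1 bp. The thresholded list holds the same peaks as the strongest 5038 of the pooled list, which was called on both replicates, so these counts are a description. Of the 17 with a counterpart in each, 11 ranked higher in replicate 1. The same share over all 5038 peaks is not given here, so this lean is not read as particular to the members. As a ratio, the ranks differed most for the peak past the end of CycB (3.11, ranks 36 and 112). The main Dp peak (2.44) and the intronic E2f1 peak (2.22) followed, both higher in replicate 3. A ratio weighs small shifts near the top of a list heavily. In places, the CycB promoter peak moved further (ranks 3545 and 7011).

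**Figure D4:**
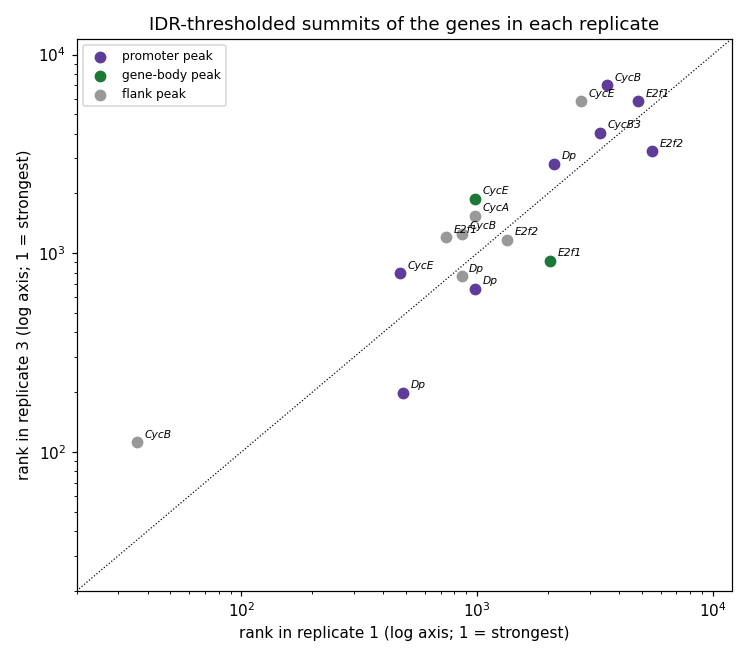
Rank in replicate 1 (horizontal log axis) against rank in replicate 3 (vertical log axis) of the 17 IDR-thresholded summits of the genes with a counterpart in each, coloured by class, with equal ranks on the dotted line. The 11 points above the line rank higher in replicate 1, and the CycB peak past the 3′ end is the strongest in each.

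The windows of 100 bp to either side of the 18 summits were searched on either strand for 8 motifs, and matches are descriptions of sequence, not binding sites. The E2F motif (any of TTTCCCGC, TTTGGCGC, TTTCGCGC or TTTGCCGC) was in 0 of 18 windows and in 2.94% of all 5038. M1BP's motif GGTCACAC was in 2 of 18 windows (2.08% of all), the start-site windows of CycB and CycB3. Among promoter windows it was in 2 of the members' 8, beside 3.79% of the 2509 within 500 bp of a coding TSS. In CycB3 the motif is the stretch printed in capitals. The replication-related element TATCGATA was in 1 of 18, beside RpL10Ab, and in 4.29% of all. Its last bases CGATA, bound by BEAF-32 and held by every match of the longer element, were in 6 of 18 windows and in 31.2% of all. The members' windows with them included those at CycB, CycE, E2f2 and the outermost start of Dp. Among promoter windows they were in 4 of the members' 8, beside 41.6% of the 2509. The sequence TATAAA was in 7 of 18 windows (38.5% of all). Zelda's motif CAGGTAG was in 1 of 18 windows, the intronic one of E2f1 (0.834% of all), and not within 50 bp of its summit. Neither the GAGA motif GAGAGAG (2.24%) nor the E-box CACGTG (2.08%) was in any of the 18. GC content of these windows ran from 23.4% upstream of the inner E2f1 start to 51.7% at the outermost Dp start. The median was 35.6%, beside 34.3% over all 5038.

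Other cell cycle genes, listed by role, had a promoter peak in 36 of 78 cases (46.2%, beside 23.7% of all coding genes), and in 15 of 78 (19.2%, beside 14.8%) among the stronger 2519 peaks. These lists were chosen with earlier results of these data known. The ubiquitin ligases that destroy cyclins and other regulators, APC/C and SCF, had 11 of 19. Cdc16 of the APC/C was the strongest (signal 844, rank 429), followed by ago, whose product targets Cyclin E for destruction (307, rank 1971), Cul1 (233, rank 2728) and APC4 (186, rank 3495). Of the mitotic and checkpoint kinases 6 of 9 had one, led by aurA (535, rank 887), gwl (492, rank 1026), BubR1 (349, rank 1691) and lok (344, rank 1727). Replication licensing genes had 7 of 19, led by dpa (533, rank 894), Mcm2 (496, rank 1012), dup (396, rank 1421) and chif (375, rank 1535).

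Partners of the members themselves were in small lists, whose counts stand beside 46.2% of the 78 genes and 23.7% of all coding genes. Of the 8 cyclin-dependent kinase genes 4 had a promoter peak. They were Cdk12 (626, rank 681), Cdk1, the kinase of the mitotic cyclins (368, rank 1570), Cdk8 (196, rank 3311) and Cdk7 (135.5, rank 4798). Other cyclins had 3 of 7, namely CycH (200.9, rank 3232), CycK (158, rank 4127) and CycG (150.1, rank 4329). Rb-family partners and members of the dREAM complex had 4 of 10. Here Rbf2, the second pocket protein gene, ranked 334 with a signal of 976, while Rbf had no promoter summit in any list. The others were mip130 (232, rank 2746), mip40 (231, rank 2756) and mip120 (141, rank 4607). Of the 6 genes for Cdc25 phosphatases, Wee1 kinases and Cdk inhibitors, only rux had one (160, rank 4083). Thus twe, the other Cdc25 gene, lacked one as stg did.

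The promoter peaks ranked directly above and below each member's strongest, among 2509 IDR-thresholded promoter peaks, belonged to genes of varied kinds. Likeness here means only a neighbouring rank in 1 list. Dp (signal 1084) stood between CG1827 (1086) and Ide (1083), and CycE between Polr2F (670.2) and Mkp (669.5). CycB3 lay between Atx2 (181) and spn-A (180.5), a gene of DNA repair, and E2f2 (164) between twz (165) and Mpcp1 (164). CycB stood between geminin (137), the inhibitor of replication licensing, and CG17544 (137), and E2f1 between Mef2 (134) and ebd2 (133).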

How the data were processed

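ChIP-seq peak lists of 2 biological replicates (1 and 3) of whole embryos were used, and the labels give chromatin fragments between 200 and 800 bp. The authors deposited 4 lists on dm6, namely peaks of each replicate, of both pooled and those thresholded by IDR. The per-peak signal is the authors' deposited value; neither its scale nor the peak caller and its settings is given in the sources used here. Read depth is unknown, so no interval was computed and precision is limited by 2 replicates.

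Summits were assigned to genes of Ensembl release 115 (BDGP 6.54; 18164 genes, 23581 TSSs) with Python 3.11.15, numpy 2.4.6, pandas 2.3.3 and matplotlib 3.10.9. Coordinates are 1-based, and ranks run by signal within a list. For the build, 99.5% of 15231 plus-strand coding starts read ATG in the RefSeq sequence and 0 summits lay beyond an arm's end. The code for gene assignment was run on simulated summits placed within 500 bp of a TSS. Their promoter call was fixed by the rule, and the gene-body and flank classes were not tested.

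The 10 genes, the 7 lists of other cell cycle genes and the motifs were chosen with earlier results of these data known. Named besides the members were up to 4 genes per list with the strongest IDR-thresholded promoter peaks, genes with a TSS within 500 bp of a described summit, and neighbours in rank. The genes twe, Rbf's neighbour CG16989 and blw as the convergent gene were named after their values were seen. No test was made, since there is 1 group. Alternatives were other TSS, flank and window distances, the stronger part of the IDR-thresholded list, the pooled list, the nearest coding TSS only and each replicate alone.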

Additional observations from a re-analysis of the deposited data

How the results depend on the processing

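Of the alternatives tried, 39 left a value within 1.5 times the reported one and 11 did not. In the stronger 2519 IDR-thresholded peaks 2 members had a promoter peak, beside 14.8% of coding genes, and 15 other cell cycle genes (19.2%) had one. With all pooled peaks 48.2% of coding genes had a promoter peak, and 4 members had a gene-body peak, beside 31.3%. At 1000 bp from a TSS 1 member kept a gene-body peak (E2f1), beside 6.78% of coding genes, and within 2 kb 3 members had a flank peak, beside 18.8%. At 250 bp from a TSS 4 members had a promoter peak (19.1%), without CycE and E2f1. With windows of 200 bp to either side GAGA was in 1 of 18 member windows (8.85% of all 5038) and the E-box in 1 (5.22%). With 50 bp to either side M1BP was in 1 of 18 (0.814% of all) and Zelda's motif in 0 (0.576%). The cause was not tested.

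With either replicate alone, members with a promoter peak numbered 4 to 5 and coding genes 21.8% to 26.8%, members with a gene-body peak 2 in each case (7.77% to 8.72%) and with a flank peak 6 to 7 (38.7% to 42.4%). Other cell cycle genes with a promoter peak numbered 28 to 40 of 78 (35.9% to 51.3%). No paired analysis was possible because there is 1 group and no test. Depth is unknown, so a missing peak does not show that a site was free of the protein.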
